A study of Caenorhabditis elegans with 2 samples.

Results

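The X chromosome of Caenorhabditis elegans carries 276 annotated tRNA genes, 45.1% of the 612 nuclear tRNA genes and a small share of the 46890 annotated nuclear genes. They were taken as all genes of the tRNA biotype on X in the Ensembl annotation of WBcel235, the assembly also called ce11. Each was scored against chromatin immunoprecipitation sequencing (ChIP-seq) peaks of the protein of Y75B8A.6, a gene on chromosome III. A tRNA gene is called bound here when the summit of a peak in the main list, the larger of the study's 2 thresholded lists over both libraries, lay within 500 bp of its start. By that rule 107 of the 276 genes (38.8%) were bound, where the same rule called 1.86% of all annotated genes.

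All animals came from strain RW12275, whose allele st12275 is a CRISPR insertion of TY1, EGFP and 3xFLAG at Y75B8A.6, and the precipitation used an antibody against GFP. Whole L4 larvae of age 48 h, synchronised by starving L1 larvae after bleaching, gave 2 biological replicates of 1 group. Both libraries carried the tag, no library of untagged animals was analysed here, and signal that does not depend on the tagged protein cannot be told apart from binding. The peak lists hold no expression values, so the labelled stage and tissue could not be checked against markers, and they hold no read totals, so the depth behind each peak is unknown.

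As background, tRNA genes are transcribed by RNA polymerase III from a promoter inside the gene. The factor TFIIIC recognises its A box, near the start of the transcribed sequence, and its B box, further down. TFIIIC then places TFIIIB just upstream of the start, TFIIIB recruits the polymerase, and transcription ends at a run of T residues after the gene. Animal genomes hold many copies of each tRNA gene, often with the same sequence, so copies can be compared in different surroundings.

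The sequences of 5 bound genes, chosen because their peaks were among the highest in the set, are given 5′ to 3′ on the strand of the gene, with capitals at the start of the A box (TGGCNNAG or TAGCNNAG) and at the core of the B box (GTTCNANNC). F15G9.t1 and F15G9.t2 lie one after the other in an intron of him-4, the hemicentin gene, and share a single peak. The genome is that of ce11 as given by RefSeq and the gene positions are those of Ensembl.
F15G9.t1 (alanine, chrX:9743589-9743660, plus strand): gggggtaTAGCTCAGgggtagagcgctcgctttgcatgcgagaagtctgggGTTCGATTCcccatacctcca
F15G9.t2 (alanine, chrX:9743747-9743818, plus strand): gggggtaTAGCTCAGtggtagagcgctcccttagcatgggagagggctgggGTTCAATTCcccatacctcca
R04D3.t2 (valine, chrX:13307034-13307106, plus strand): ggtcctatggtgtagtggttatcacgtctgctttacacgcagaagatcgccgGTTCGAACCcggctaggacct
C04A11.t1 (leucine, chrX:13665555-13665673, plus strand): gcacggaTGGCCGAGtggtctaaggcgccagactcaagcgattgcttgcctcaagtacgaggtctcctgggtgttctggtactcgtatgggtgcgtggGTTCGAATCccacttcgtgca
C02B4.t2 (tyrosine, chrX:12665228-12665311, plus strand): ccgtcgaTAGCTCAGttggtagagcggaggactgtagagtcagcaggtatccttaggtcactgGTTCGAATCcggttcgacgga

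The search covered 100 bases from the start of each gene, which run past the end of most genes. A box further down, as in C04A11.t1, was not counted. Letters of the B box core were found on the gene's own strand in 265 of the 276 genes (96.0%) and in 93.8% of autosomal tRNA genes. The same letters occurred in 3.50% of all annotated nuclear genes, and in 5.75% with either strand counted. Either form of the A box letters was found in 112 X tRNA genes (40.6%), against 2.95% of all annotated genes on the own strand and 5.37% on either strand, and the 2 motifs do not overlap in the genes printed. The A box letters began at base 8 at the median (range 8 to 91) and the B box letters at base 52 (range 25 to 69). The A box match at base 91 is that of rte-1, a bound gene of 72 bp, and lies past its end. In tryptophan genes such as sup-7 and rtw-5 the B box letters began at base 25, far from the median place. The counts include all these matches. A run of TTTT followed within 30 bp of the end of 273 genes, at a median of 5 bp. The B box core was present in bound and unbound genes alike: 100 of the 265 genes with it were bound (37.7%), and 7 of the 11 without these letters. Longer forms of the boxes were searched first: GGTTCGANNCC was in 173 X tRNA genes (62.7%), of which 63 were bound, against 1.19% of all genes (1.72% on either strand), and the full A box consensus in 50 (18.1%), of which 16 were bound, against 0.484% (0.693%). With the shorter A box letters 38 of 112 were bound (33.9%) and without them 69 of 164 (42.1%). All 107 bound genes had the TTTT run and all but 3 of the 169 unbound ones had it.

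The summits lay on the genes themselves. The 107 bound genes were reached by 93 distinct summits, which made up 49.7% of the 187 main-list peaks on X and 9.97% of all 933. Every one of these 93 peaks was 256 bp wide with its summit in the middle. Measured from the start of the nearest tRNA gene, the median summit was 20 bp downstream, the middle 50% ran from 7 to 42 bp, and 91 of 93 were within 100 bp. By position, 70 summits were inside a gene, 19 upstream of it and 4 past its end. The farthest of them lay 405 bp downstream of the start of the arginine gene C18A11.t2, with a signal of 62.9. That gene also had a summit 10 bp upstream of its start, with a slightly lower signal of 61.0.

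**Figure D1:**
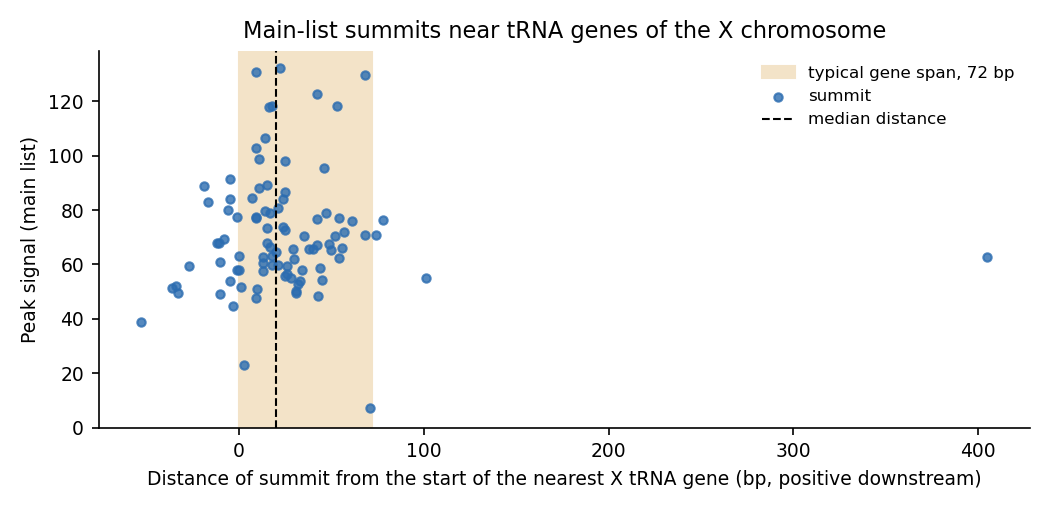
Each point is 1 of the 93 main-list summits near an X tRNA gene, plotted by its distance from the start of the nearest X tRNA gene (bp, positive downstream) and its peak signal in the main list (no unit given by the authors). The shaded band is a gene of 72 bp and the dashed line the median of 20 bp; most summits fall inside the band and 1 lies at 405 bp.

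Few genes lay close to the limit of 500 bp. Just inside it, the nearest summit lay 430 bp from C06G1.t3 (aspartate), 358 bp from F22F1.t4 (serine) and 348 bp from R04E5.t3 (glycine). Just outside, it lay 538 bp from R04E5.t2 (glycine), 560 bp from R11.t2 (tyrosine) and 587 bp from F59C12.t1 (valine). All 6 of these genes had another tRNA gene within 1000 bp.

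The peak signal is the value the authors' peak caller gave, and it is used here only within a list. Over the 93 summits the median was 67.1 and the range 7.31 to 132.2, where the whole main list had a median of 61.7 and a maximum of 302.1. The 76 summits near autosomal tRNA genes had a median of 69.0 and ran from 47.8 to 108.2. Among the X genes 60 of the 93 peaks were at or above the main-list median.

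The 10 bound genes of highest signal stood on 8 peaks and carried 7 amino acids. M02F4.t1 (glycine) and M02F4.t2 (glutamate), which start 117 bp apart and point away from each other, shared the peak of 132.2, rank 29 of the main list. Its candidate signal was 71.95 in the ranked list of replicate 1 and 65.9 in that of replicate 2. F41D9.t3 (asparagine, in an intron of sulp-3) had 130.8 in the main list, with 45.8 in replicate 1 and 85.9 in replicate 2. These genes were in the thresholded lists of both replicates, though in a different order: the glycine and glutamate pair stood above the asparagine gene in replicate 1 and below it in replicate 2.

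The alanine genes F15G9.t1 and F15G9.t2, printed above, shared a peak of 129.6, with 69.1 in replicate 1 and 54.3 in replicate 2. Another alanine gene, T07H6.t2, had the same sequence as F15G9.t1 but stood alone between genes, with 106.5 in the main list, 42.5 in replicate 1 and 53.1 in replicate 2. R04D3.t2 (valine) had 122.7, with 50.4 and 68.7 in replicates 1 and 2. The remaining X copy of the F15G9.t1 alanine sequence, T07H6.t1, was also bound and had no tRNA neighbour. It had 59.7, below the median of the set, so copies of 1 alanine gene spanned much of the range of signals.

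C04A11.t1, a leucine gene of 119 bp where the median bound gene has 72, had 118.4 in the main list, 64.0 in replicate 1 and 52.0 in replicate 2. C02F12.t1 (methionine) had 118.2, with 55.0 and 55.5, and C28G1.t1 (glutamate) had 117.9, with 43.7 and 69.0. These last 2 genes were in the thresholded list of replicate 2 and not in that of replicate 1. C28G1.t1 was the single member whose span overlapped an exon of another gene, C28G1.2.

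Of the 20 isotypes on X, the amino acids that a tRNA carries, 19 had at least 1 bound gene and cysteine had none of 7. The cysteine gene F42D1.t1 was, however, in the thresholded list of replicate 1, with 49.96, and had no candidate in replicate 2. The highest bound shares were those of alanine (8 of 13), glutamine (9 of 15), aspartate (7 of 12), valine (8 of 14) and glycine (11 of 20). Glutamate had 11 of 23, methionine 4 of 8, phenylalanine 3 of 6 and tyrosine 3 of 8. The lowest shares above 0 were those of isoleucine (2 of 13), tryptophan (1 of 5) and arginine (6 of 27). Between these stood leucine (6 of 17), proline (7 of 20), lysine, serine and histidine (6 of 18, 6 of 18 and 3 of 9), asparagine (2 of 6) and threonine (4 of 14). The 3 genes with no isotype in the annotation were not bound. On the autosomes the order was another one, with 3 of 6 cysteine, 8 of 17 arginine, 5 of 21 alanine and 2 of 12 glutamine genes bound. The difference between chromosomes was not tested, since genes that share a summit or a sequence are not independent.

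**Figure D2:**
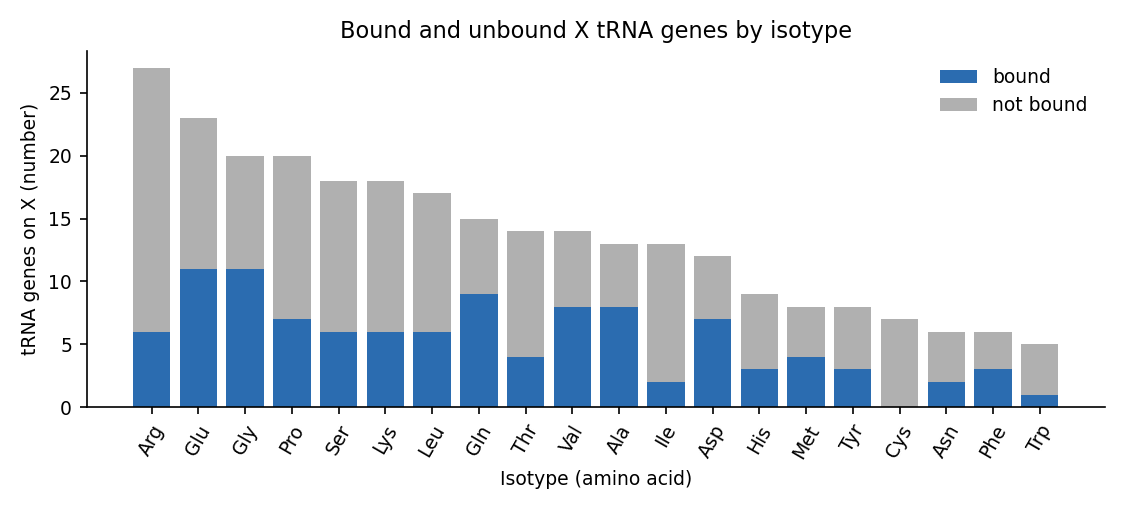
Bars give the number of X tRNA genes of each isotype, split into bound (blue) and not bound (grey) in the main list, in falling order of gene number. Cysteine has 7 genes and no bound one, while alanine has 8 bound of 13.

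The strongest gene of each further isotype was found at lower ranks. C02B4.t2 (tyrosine, in an intron of nhr-17, a nuclear hormone receptor gene) had a main-list signal of 103.0, W03G11.t1 (lysine) 98.6, R01H5.t1 (threonine) 98.0 and C42D8.t1 (isoleucine) 95.4. F38G1.t2 (aspartate) followed with 88.2, C06G1.t1 (histidine) with 86.8, T28B4.t1 (phenylalanine) with 84.0 and C16B8.t1 (proline) with 82.9. The lowest of these leaders were sup-7 (tryptophan, known for its amber suppressor alleles) at 78.8, the serine pair C53C7.t2 and C53C7.t1 at 77.4 (a shared peak, 1 bp from the start of the former and 130 bp from that of the latter), C03A3.t1 (arginine) at 77.2 and H35N09.t2 (glutamine) at 69.5. The isotype with the weakest leader, glutamine, was among those with the largest bound share. Its bound genes all lay in the H35N09, H08J11 and F54F7 clusters. Of them, H35N09.t1, F54F7.t1, H08J11.t2 and H08J11.t4 were called through summits nearer to a neighbour, so the share depends on clustering within 500 bp.

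The sup genes show how copies of 1 tRNA differed. The loci sup-7, sup-21, sup-28 and sup-33, carry an identical tryptophan tRNA sequence. In the ranked list behind the main list sup-7 had a candidate signal of 78.8, sup-33 of 43.1 and sup-28 of 41.3, and sup-21 had no candidate within 500 bp. The replicates gave sup-7 values of 48.7 and 31.3, above the 18.8 and 21.6 of sup-33 and the 16.7 and 23.1 of sup-28 in replicates 1 and 2. In replicate 1 sup-21 had 5.77, and replicate 2 had no candidate there.

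Such splits occurred in most groups of identical genes, where 38.8% of all X tRNA genes were bound. At that share a group of several copies can hold both kinds whatever its sequence. Whether splits were more common than that was not tested. The 276 members had 106 distinct sequences, 33 of which occurred more than once on X and together covered 203 genes. In 27 of these 33 groups some copies were bound and others were not, in 2 all were bound and in 4 none. The 27 mixed groups held 184 genes, of which 74 were bound. Of the 73 genes whose sequence occurred once on X, 28 were bound. Reads from identical copies are hard to place, and how the authors treated reads with several matches is not given in the sources used here, so the values of single copies are uncertain.

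A representative of 4 of these families is printed, with the same capitals, because each family had bound and unbound copies. C16B8.t1 stands for the proline group (anticodon TGG), C14F11.t1 for the arginine group (ACG), R04A9.t1 for a glutamine group (TTG) and C49F5.t1 for the histidine group (GTG).
C16B8.t1 (proline, chrX:3969556-3969627, plus strand): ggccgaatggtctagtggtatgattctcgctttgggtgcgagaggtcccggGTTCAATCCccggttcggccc
C14F11.t1 (arginine, chrX:6220070-6220142, minus strand): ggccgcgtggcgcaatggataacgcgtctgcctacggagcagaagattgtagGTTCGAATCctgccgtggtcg
R04A9.t1 (glutamine, chrX:410391-410462, plus strand): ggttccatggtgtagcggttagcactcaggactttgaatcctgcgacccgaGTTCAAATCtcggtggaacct
C49F5.t1 (histidine, chrX:11993521-11993592, minus strand): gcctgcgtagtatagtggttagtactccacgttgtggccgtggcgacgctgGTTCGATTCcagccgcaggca

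The proline group, the largest, had 5 of its 13 X copies bound, and 5 of 11 autosomal copies. Candidate signals in the ranked list behind the main list ran from 22.5 to 82.9 over the 11 X copies that had one. The glutamate group (CTC) had 5 of 12 bound on X and 2 of 8 on autosomes, with signals from 7.63 to 132.2. The glycine group (TCC) had 5 of 11 on X and 10 of 18 on autosomes, with signals from 29.9 to 132.2. The maximum of 132.2 in the glutamate and glycine groups is the same M02F4 peak, whose summit lies in the glycine gene and 139 bp from the start of the glutamate gene. In each of these groups other copies of the same sequence were not in the main list.

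The glutamine group (TTG) had 5 of 9 X copies bound and none of 6 autosomal ones, and the second glutamate group (TTC) had 5 of 8 and none of 7. Of the bound glutamine copies, H35N09.t1 and H08J11.t4 were called through summits nearer to a neighbouring tRNA gene. Their nearest summits lay 125 bp and 267 bp from their starts. Calls through neighbours were not taken out of these counts, on X or on the autosomes. The cysteine group (GCA) went the other way, with none of 7 on X and 2 of 5 on autosomes. The arginine group (ACG, 4 of 10 bound), the leucine group (AAG, 2 of 9) and a tyrosine group (2 of 6) had no autosomal copy. Taken over the 43 sequences found on both X and autosomes, 80 of 185 X copies (43.2%) and 64 of 223 autosomal copies (28.7%) were bound. The share was higher on X for 25 of these sequences, lower for 10 and equal for 8. These counts are from the main list alone and include genes that share a summit. Over all tRNA genes the conservative list called 30.1% on X and 27.1% on the autosomes, a smaller gap than in the main list. The difference at matched sequence was not tested.

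**Figure D3:**
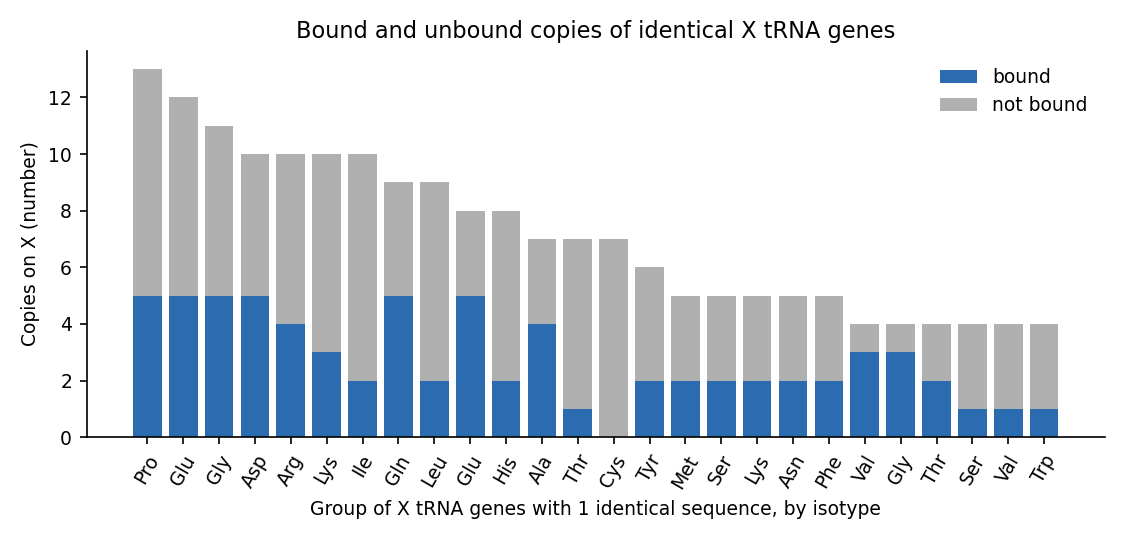
Each bar is 1 group of X tRNA genes with an identical sequence, for groups of 4 or more copies, labelled by isotype and split into bound (blue) and not bound (grey) copies. All groups but that of cysteine hold copies of both kinds, from 5 bound of 13 for proline to 1 bound of 4 for tryptophan.

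Identical genes differed in their flanks. When the 20 bases upstream were added to the compared sequence, 3 groups of identical genes remained, with 6 genes in all and none of them bound, so no mixed group was left. That follows from how few copies share their flanks, and the part of the flanks in the calls was not tested. For the arginine group, which occurs on X alone, the 50 bases upstream of the 4 bound copies and then of the 4 unbound copies with the highest candidate signals are printed to show how unlike they are. No base is in capitals because no motif was searched in them.
C03A3.t1 (arginine, 50 bases upstream, chrX:11252663-11252712, minus strand): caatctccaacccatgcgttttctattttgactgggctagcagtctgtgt
F09B9.t1 (arginine, 50 bases upstream, chrX:10145106-10145155, plus strand): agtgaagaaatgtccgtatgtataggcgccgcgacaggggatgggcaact
T01C1.t1 (arginine, 50 bases upstream, chrX:10732062-10732111, minus strand): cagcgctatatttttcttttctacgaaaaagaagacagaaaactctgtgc
C18A11.t2 (arginine, 50 bases upstream, chrX:8036758-8036807, minus strand): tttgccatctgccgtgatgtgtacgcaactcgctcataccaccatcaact
C14F11.t1 (arginine, 50 bases upstream, chrX:6220143-6220192, minus strand): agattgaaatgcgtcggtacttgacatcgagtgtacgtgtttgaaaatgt
T06H11.t2 (arginine, 50 bases upstream, chrX:10132628-10132677, plus strand): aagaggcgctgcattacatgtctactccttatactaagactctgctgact
T06H11.t3 (arginine, 50 bases upstream, chrX:10133044-10133093, minus strand): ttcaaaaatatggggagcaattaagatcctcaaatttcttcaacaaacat
F12D9.t4 (arginine, 50 bases upstream, chrX:8640867-8640916, minus strand): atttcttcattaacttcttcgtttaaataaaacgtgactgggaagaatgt

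Aligned by position without gaps, the flanks of 2 bound copies matched at a median of 22% of the 50 bases over 6 pairs, those of 2 unbound copies at 26% over 15 pairs and those of a bound and an unbound copy at 27% over 24 pairs. Matching by position cannot find a short motif at differing distances from the gene, and the pairs share members. Whether bound copies share an upstream feature was therefore not tested. C03A3.t1 had a main-list signal of 77.2, with candidates of 45.7 in replicate 1 and 32.01 in replicate 2. F09B9.t1 had 76.5, with 40.01 and 35.1, T01C1.t1 had 70.9, with 29.97 and 30.9, and C18A11.t2 had 62.9, with 38.9 and 36.7. The 62.9 of C18A11.t2 is that of the summit 405 bp from its start, and its replicate values may come from other summits. Of the unbound copies, C14F11.t1 reached 49.7 in the ranked list behind the main list, with 24.3 in replicate 1 and 25.5 in replicate 2. The replicates did not separate all bound from all unbound copies: the unbound F09B9.t2 reached 32.01 in replicate 2, above T01C1.t1 and level with C03A3.t1.

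Base composition upstream varied with the call. The 50 bases before the gene had a median AT content of 56% at bound and 62% at unbound X genes, and of 54% and 56% at autosomal ones. By class, 16 of 34 X genes with under 50% AT were bound (47.1%), 49 of 94 with 50% to under 60% (52.1%), 33 of 105 with 60% to under 70% (31.4%) and 9 of 43 with 70% or more (20.9%). The autosomal genes had 22.6%, 32.8%, 19.4% and 14.3% bound in the same classes. The part of base composition in the calls, through sequencing or otherwise, was not tested.

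The place of a gene relative to protein-coding genes went with small differences in the bound share, which were not tested. Of the 180 intergenic genes 73 were bound (40.6%) and of the 95 intronic ones, in 67 host genes, 33 (34.7%). The autosomal shares were 25.2% (intergenic) and 25% (intronic). With the host on the same strand 15 of 50 intronic genes were bound and with the host on the opposite strand 18 of 45. In the list of replicate 1 alone 17 intergenic and 10 intronic genes were bound, and in that of replicate 2 alone 32 and 13. Along the chromosome the bound share was 24 of 51 genes in the first of 3 equal stretches, 43 of 107 in the middle one and 40 of 118 in the last.

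Some tRNA summits also lay in promoter windows of protein-coding genes, which begin 1000 bp before an annotated start and end 300 bp after it. This held for 22 of the 93 summits, which lay in the windows of 24 genes. Of all protein-coding genes 2.32% had a main-list summit in their window. That is a share of genes and cannot be set against the share of summits. The strongest were at C28G1.t1, whose summit (117.9) lay in the windows of C28G1.2 and sec-15, an exocyst gene, and at T07H6.t2 (106.5), in those of lev-9 and mom-1. Next came F38G1.t2 (88.2), in the window of the fibroblast growth factor gene egl-17, C16B8.t1 (82.9), in that of C16B8.3, F52H2.t2 (73.8), in that of smvt-1, and C04E7.t1 (72.7), in that of sor-3. All 6 summits were within 25 bp of the tRNA start. Of the 93 summits, 63 lay within 500 bp of the start of another gene that is neither protein-coding nor a tRNA gene. The same share for other main-list summits is not given here. Which of the overlapping genes a peak belongs to cannot be told apart here.

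Neighbouring tRNA genes often shared a summit. Of the 93 summits, 74 were within 500 bp of 1 tRNA gene on X, 14 of 2, 4 of 3 and 1 of 4, and 34 bound genes took their call from a summit that another member used too. With starts at most 1000 bp apart, 131 genes formed 53 clusters, 39 of them pairs. In 14 clusters all genes were bound, in 8 some and in 31 none. Clustered genes were bound in 44 of 131 cases (33.6%) and single ones in 63 of 145 (43.4%), against 29.3% and 23.2% on the autosomes. The clustered count was 8 in the list of replicate 1 alone and 21 in that of replicate 2 alone. It fell to 29 when each summit was given to the nearest tRNA start only.

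Pairs that point away from each other stood closest together. The 17 divergent pairs had starts 161 bp apart at the median, and in 8 of them both genes were bound, with the same summit as the strongest within 500 bp of each. Among these, F46G11.t2 and F46G11.t1, had a summit at each gene, of 77.4 at 9 bp from the former and of 23.0 at 3 bp from the latter. In 1 more divergent pair 1 gene was bound, and in 8 neither was. Of the 16 tandem pairs, with a median of 594 bp, both genes were bound in 3 and from the same summit in 2. Of the 6 convergent pairs both were bound in 1. Where such a pair has a single peak of 256 bp, its signal cannot be divided between the genes.

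The largest arrays differed from each other. In an intron of ajm-1, an apical junction gene, 5 glutamine genes (H08J11.t1 to H08J11.t5) were all bound by 3 peaks, of 44.7 at the start of H08J11.t5, of 58.0 at the start of H08J11.t3 and of 7.31 in H08J11.t1. The last was the lowest near any member, and H08J11.t2 and H08J11.t4 were called through the peaks of their neighbours. In the ranked lists the strongest peak had 31.9 in replicate 1 and 35.6 in replicate 2, and that at H08J11.t5 had 22.8 and 19.8. No H08J11 gene was in the thresholded list of either replicate.

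The F22F1 array holds 6 genes for serine, aspartate, methionine and isoleucine. Its first pair, F22F1.t2 and F22F1.t3, shared a candidate of 27.7 and was not bound. The other 4 genes had 3 peaks among them. The peak of 70.7, 68 bp from the start of F22F1.t5, was within 500 bp of F22F1.t4 and F22F1.t6 too, with 29.4 in replicate 1 and 42.0 in replicate 2. A peak of 67.1 had its summit in F22F1.t6, 42 bp from its start, and one of 56.5 had it in F22F1.t7, 26 bp from its start. The peak of 70.7 was in the thresholded list of replicate 2 and in that of replicate 1 it was not.

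The 6 histidine genes of F28H6 were not bound. F28H6.t2 and F28H6.t7 shared a candidate of 25.3, F28H6.t4 and F28H6.t5 one of 21.7, and F28H6.t3 and F28H6.t6 had none. Within 250 bp of these genes, 3.32% to 89.4% of the 50-base windows occur once in the genome. The array is therefore largely repeated sequence, and an absent peak there cannot be told apart from reads that could not be placed. The histidine genes on X outside the array that share its sequence, C06G1.t1 (86.8) and C49F5.t1 (55.0), were both bound. Of the 3 autosomal copies of that sequence 1 was bound.

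In the K01A12 array, in an intron of K01A12.3, none of 2 arginine and 3 cysteine genes was bound, with a candidate of 27.9 for 4 of them and of 20.1 for K01A12.t3. In the R11 array 1 of 4 identical tyrosine genes was bound. R11.t1 had a signal of 88.6, with 37.2 in replicate 1 and 48.7 in replicate 2. R11.t2 and R11.t3 shared a candidate of 33.2, and R11.t4 had one of 27.5. The windows around these 4 genes were 87.8% to 89.6% unique. That share does not measure whether reads on the identical genes could be placed, and the part of read placement was not tested.

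**Figure D4:**
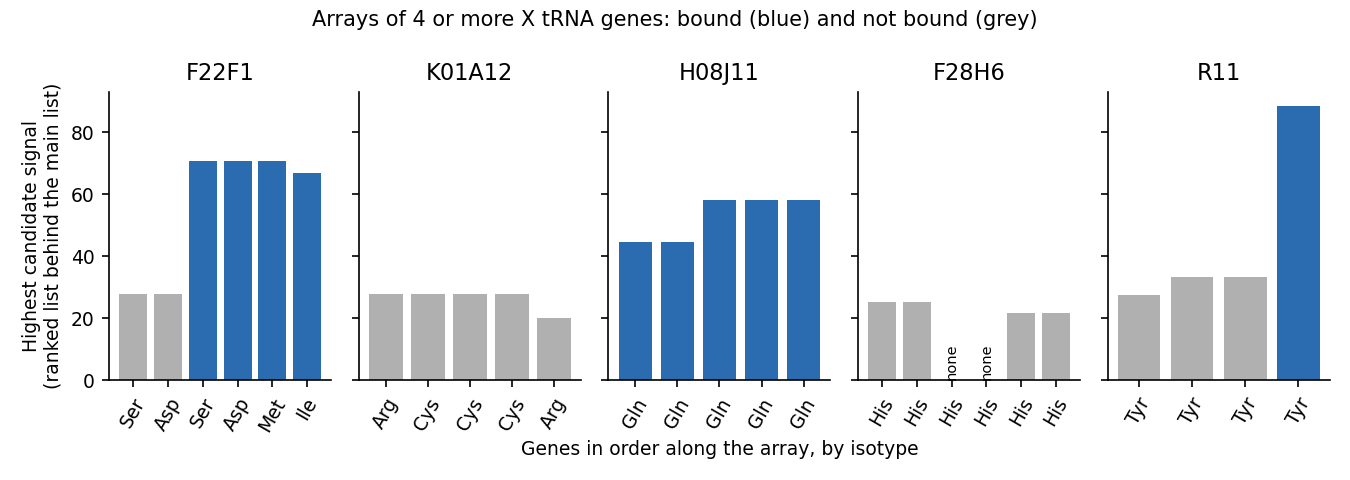
Bars give, for the 5 arrays of 4 or more X tRNA genes, the highest candidate signal within 500 bp of each gene in the ranked list behind the main list, in order along the chromosome, blue where the gene is bound in the main list. Neighbours of equal height share a peak. All 5 genes of H08J11 are bound, none of F28H6 or K01A12, and 1 of 4 of R11.

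Over all members, the uniqueness of the surroundings differed little between bound and unbound genes at the median (91.8% in both). Of 202 genes with at least 90% unique windows 85 were bound (42.1%), of the 74 below that 22 (29.7%), and of the 5 below 50% none. Genes whose exact sequence occurs once in the genome were bound in 18 of 57 cases (31.6%) and those with other copies in 89 of 219 (40.6%).

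The other lists of the study called fewer of these genes. The conservative list had a summit at 83 (30.1%), where it called 1.74% of all genes, and 81 of the 83 were also bound in the main list. The list of replicate 1 alone called 27 (9.78%; 0.672% of all genes) and that of replicate 2 alone 46 (16.7%; 0.855%). Both replicates called 18 genes, 9 were called in replicate 1 only and 28 in replicate 2 only, and 55 in either. All 18 were also in the main and conservative lists, and 54 of the 107 bound genes were in neither replicate's own list. The autosomal shares were 27.1%, 8.93% and 12.5% in the conservative, replicate 1 and replicate 2 lists. The gap between X and autosomal tRNA genes was thus smaller in these lists than in the main list, and it was not tested.

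The ranked lists reach far below the thresholds, and candidates near a gene are common in them. They hold 103934 candidates behind the main list, 75570 for replicate 1 and 56066 for replicate 2, and had one within 500 bp of 251 (90.9%), 241 (87.3%) and 239 (86.6%) X tRNA genes, and 12 genes had none in any of these 3. The same lists had one near 56.8%, 43.9% and 39.3% of all annotated genes, and near 90.8%, 85.4% and 85.4% of autosomal tRNA genes. At bound genes the candidate signal in replicate 1 had a median of 34.9 (range 11.95 to 71.95), against 20.4 (5.77 to 49.96) at unbound ones. In replicate 2 it was 33.6 (17.2 to 85.9) against 17.5 (6.17 to 44.0). The ranges overlapped in both replicates, and the main list draws on the same libraries.

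Across the 219 genes with a candidate in both replicates, the candidate values correlated at 0.476 (Spearman) and 0.588 (Pearson). Among the 103 bound genes of these the Spearman value was 0.322 and among the 116 unbound ones -0.0863. These describe genes, which share peaks and libraries and are not replicates.

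**Figure D5:**
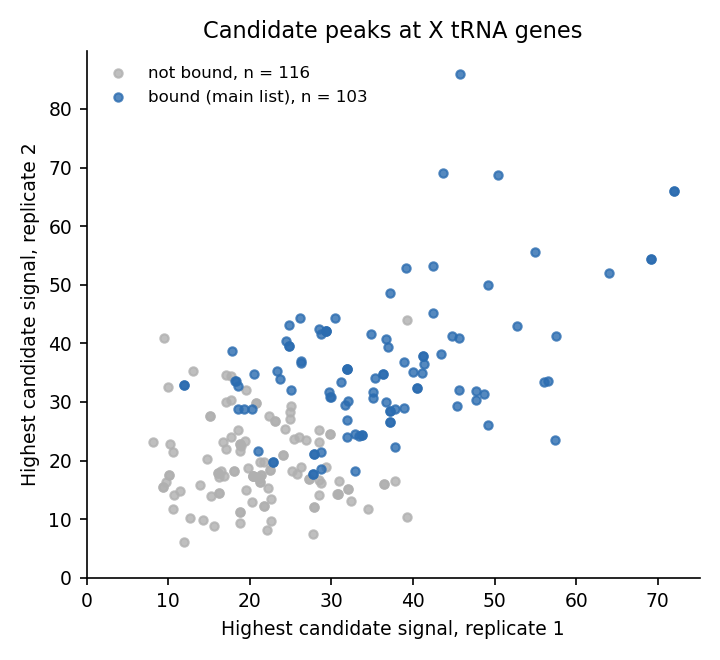
Each point is an X tRNA gene with a candidate peak in both replicates, plotted by its highest candidate signal within 500 bp in replicate 1 and in replicate 2 (no unit given by the authors). Bound genes (blue, n = 103) reach higher than unbound genes (grey, n = 116), and the clouds overlap between 17.7 and 44.0 in replicate 2.

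The unbound genes of highest candidate signal were F59C12.t2 (aspartate), with a candidate of 57.5, D1009.t2 (leucine) with 56.4, C28G1.t4 (glycine) and C28G1.t5 with a shared one of 53.6, and C02B4.t1 (isoleucine) with 52.0. Their replicate values were 24.9 and 27.1 for F59C12.t2, 22.3 and 27.6 for D1009.t2, 29.8 and 24.6 for the C28G1 pair, and 17.1 and 29.99 for C02B4.t1. The main list begins at a score of 830, which ranks how well a peak repeats, and of the unbound genes C14F11.t1 came closest to it with 822. F59C12.t2 scored 737 and D1009.t2, despite its signal, 360. The C28G1 pair was in the conservative list. Their signals exceeded that of several bound genes, the lowest of which was 38.8, so a gene's signal alone did not set its call.

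Genes of the RNA polymerase III pathway and of tRNA charging were bound at shares near the 2.32% of all protein-coding genes, with 1 bound gene in each list. Of 18 genes for polymerase III subunits and its factors, rpc-2, which encodes a subunit of the enzyme, had a main-list summit in its promoter window (50.7, 5.56% of the list). That list also holds the snpc genes, which are not among the tRNA gene factors described above. Of 31 aminoacyl-tRNA synthetase genes, whose products charge tRNAs, ears-2 had one (83.6; 3.23%). By the rule of 500 bp, which called 1.86% of all genes, none of the 29 pseudogenes named as tRNA genes on X was bound and 5 of 180 on the autosomes (2.78%). Both shares are near that background. None of 20 rRNA genes and 14 of 129 snRNA genes (10.9%) were bound.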

How the data were processed

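The ChIP-seq peak lists of 2 replicate libraries were used as deposited. Per the labels the build is ce11; which aligner and peak caller were used, at what read length, and how reads with several matches were treated is not given in the sources used here. Per the file headers and descriptions each list used the alignments and 1 input shared by both libraries. The signal and the score of each peak were made by the authors, and the −log10 of the global IDR (irreproducible discovery rate), also deposited, was used to read the score: the lowest main-list score of 830 matches an IDR of 0.01. There were 120 candidates at or above that score outside the main list, 22 of them on X, none within 500 bp of a member.

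Genes came from Ensembl release 115 and products from RefSeq, which matched all 276 members. A summit within 500 bp of the start made a call, and starts at most 1000 bp apart a cluster. Uniqueness is the share of 50-base windows within 250 bp that occur once in the genome. Summit calls and clusters were tested on simulated peaks. The members, lists and alternatives were chosen with earlier results of these data known, and no p-value was computed. The genes named were the 10 of highest signal, the strongest of each isotype, the largest arrays, the 3 largest mixed identical groups, the 5 strongest unbound genes, 3 on each side of the limit and up to 6 shared promoters. The sup, arginine and other groups, the remaining arrays and the bands of AT content were added after their values were seen, and the shorter letters of both boxes after those of the longer forms. Alternatives covered other distances, lists, overlaps and cluster gaps. Tables were handled with pandas 2.3.3 and numpy 2.4.6 under Python 3.11.15, correlations came from scipy 1.17.1, and plots were drawn with matplotlib 3.10.9.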

Additional observations from a re-analysis of the deposited data

How the results depend on the processing

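Of 75 alternative values, 57 stayed within 1.5 times the reported count or, for the median distance, within the spread of the 2 replicate lists. With peaks at or above the main-list median signal alone, 70 genes, 60 summits, 20 intronic and 26 clustered genes were bound. Leaving out a replicate, by using the list of the other alone, gave 27 to 46 bound genes, 25 to 39 summits, 10 to 13 intronic, 17 to 32 intergenic and 8 to 21 clustered genes, a median distance of 17 to 22 bp and 19 to 21 mixed groups; these lists are also shorter. Clustered genes numbered 29 with each summit given to the nearest start, and 24 among members with at least 90% unique windows, an alternative chosen after seeing the data. Intronic genes with the host on the same strand numbered 15. With 20 bases upstream added to the compared sequence 0 mixed groups were left, since few copies share their flanks. Distances of 100 to 1000 bp gave 93 to 116 bound genes. The Spearman correlation of the replicates was 0.514 within 100 bp, over 144 genes. No paired analysis was possible because both libraries belong to 1 group. The peak lists carry no depth, which limits any statement on absent peaks.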
